A study of Homo sapiens with 2 samples.

Results

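Extracellular matrix and integrin genes are described here through the peaks that ATF1 chromatin immunoprecipitation (ChIP) placed at them in HCT116 cells, an established human colon adenocarcinoma line. They were taken from the deposited peak table by gene symbol: collagen chains, laminin chains, integrin alpha and beta chains, and the ADAM, ADAMTS and MMP proteases. The rule found 97 of the 15064 listed peaks, 1 for each gene. The series holds 1 ChIP library, precipitated with an antibody to 3xFlag-ATF1, and 1 input DNA library from the same line without antibody. No table of the input was used, no group has a replicate, and expression was not measured, so all values describe 1 library, no p-value is given, and the identity of the cells was not checked. The level of tagged ATF1 beside the cells' own protein is not stated in the labels.

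ATF1 belongs with CREB1 and CREM among the leucine zipper factors, and binds the cAMP response element (CRE) and its core TGACG, mostly close to transcription start sites. Collagens and laminins build the matrix around cells, laminins and collagen IV as the basement membrane under epithelia. Integrins are receptors of 1 alpha and 1 beta chain that hold cells to that matrix. ADAM and MMP proteases cut membrane proteins and matrix, and ADAMTS proteases are secreted and process matrix proteins.

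Among the listed genes the symbol pattern also takes 3 that encode no integrin chain. These are ITGB3BP, a centromere protein that also binds an integrin tail, ITGB1BP1, a cytoplasmic integrin regulator, and ITGBL1, a secreted protein resembling a beta chain. ITGB3BP had the highest fold enrichment of all 97 peaks. Of the 97 genes, 33 encode collagens, 11 laminins, 18 integrin chains, 12 ADAM, 11 ADAMTS and 9 MMP proteases. Fold enrichment is the authors' ratio of peak to background, with the background unstated, and tags are the reads counted in a peak.

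The promoters printed next are a selection. They belong to members whose peaks at the start are strong, rich in tags or shared, and to 1 gene that holds the full CRE but is not in the peak table. Each runs from 230 bases before the RefSeq start to 20 bases from it onward (GRCh38.p14, 5′ to 3′ on the gene's strand). Capitals mark TGACG or its reverse complement CGTCA. ITGB3BP and ITGB1BP1 lead because their peaks are shared with a neighbouring start.
ITGB3BP, chr1:63523206-63523455, minus strand: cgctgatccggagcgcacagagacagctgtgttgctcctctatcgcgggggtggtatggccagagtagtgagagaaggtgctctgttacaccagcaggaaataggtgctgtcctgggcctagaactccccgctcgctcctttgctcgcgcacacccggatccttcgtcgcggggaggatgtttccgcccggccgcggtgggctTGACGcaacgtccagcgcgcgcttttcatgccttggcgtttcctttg
ITGB1BP1, chr2:9423509-9423758, minus strand: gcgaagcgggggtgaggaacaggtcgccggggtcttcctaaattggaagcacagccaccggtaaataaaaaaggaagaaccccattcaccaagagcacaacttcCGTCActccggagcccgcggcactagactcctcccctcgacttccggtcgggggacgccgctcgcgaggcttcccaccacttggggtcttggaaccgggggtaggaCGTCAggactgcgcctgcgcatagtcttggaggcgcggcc
ADAM10, chr15:58749688-58749937, minus strand: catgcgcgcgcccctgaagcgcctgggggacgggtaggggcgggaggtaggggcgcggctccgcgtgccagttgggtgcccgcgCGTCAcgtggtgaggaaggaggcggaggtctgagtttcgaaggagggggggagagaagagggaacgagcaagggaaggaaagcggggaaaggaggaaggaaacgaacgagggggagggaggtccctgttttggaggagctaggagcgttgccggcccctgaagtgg
ADAM17, chr2:9555811-9556060, minus strand: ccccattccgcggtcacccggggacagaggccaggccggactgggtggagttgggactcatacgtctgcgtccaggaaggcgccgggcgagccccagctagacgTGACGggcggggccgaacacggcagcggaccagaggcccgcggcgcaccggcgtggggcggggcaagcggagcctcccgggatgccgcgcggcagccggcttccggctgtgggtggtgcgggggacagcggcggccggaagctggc
ADAM22, chr7:87934021-87934270, plus strand: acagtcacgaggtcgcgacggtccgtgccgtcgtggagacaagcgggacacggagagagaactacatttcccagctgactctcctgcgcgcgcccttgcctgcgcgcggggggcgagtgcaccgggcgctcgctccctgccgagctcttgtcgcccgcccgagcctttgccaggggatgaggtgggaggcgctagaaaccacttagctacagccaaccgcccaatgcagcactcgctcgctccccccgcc
MMP15, chr16:58025524-58025773, plus strand: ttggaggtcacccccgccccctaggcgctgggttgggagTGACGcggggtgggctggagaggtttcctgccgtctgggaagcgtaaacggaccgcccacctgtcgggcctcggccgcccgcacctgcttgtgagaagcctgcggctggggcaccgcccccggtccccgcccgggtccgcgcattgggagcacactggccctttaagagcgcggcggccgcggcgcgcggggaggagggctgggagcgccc
ITGA6, chr2:172427356-172427605, plus strand: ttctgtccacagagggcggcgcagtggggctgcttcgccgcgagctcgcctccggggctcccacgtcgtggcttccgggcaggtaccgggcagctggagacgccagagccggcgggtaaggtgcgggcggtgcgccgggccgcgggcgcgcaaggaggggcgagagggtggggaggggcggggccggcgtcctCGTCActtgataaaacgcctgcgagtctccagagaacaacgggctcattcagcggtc
ADAMTS6, chr5:65481901-65482150, minus strand: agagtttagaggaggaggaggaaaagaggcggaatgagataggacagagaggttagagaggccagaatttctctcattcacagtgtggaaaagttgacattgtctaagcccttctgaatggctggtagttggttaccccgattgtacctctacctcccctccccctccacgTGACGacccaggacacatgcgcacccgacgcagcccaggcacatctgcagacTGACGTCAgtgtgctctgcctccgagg

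In the printed stretches ITGB3BP, ADAM10, ADAM17, MMP15 and ITGA6 hold the core once and ITGB1BP1 holds it at 2 places. ADAM22 holds none. ADAMTS6 has the full palindrome TGACGTCA ending at its first transcribed base and the core again upstream, and no listed peak was assigned to it. The summit of the peak lay within the printed stretch for ITGB3BP, ADAM17, ADAM22, MMP15 and ITGA6. For ITGB1BP1 it lay 23 bp inside the start, just past the stretch, and for ADAM10 267 bp before the printed start, since the gene's 5′ end in the deposited table lies further upstream. Absence from the table does not show absence of binding, since only peaks past the authors' threshold are listed.

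Peaks of matrix, integrin and protease genes held fewer tags at the median than the listed peaks as a whole, and a smaller share of them lay at gene starts or among the strongest peaks. Their median fold was not set apart by its interval. The median fold enrichment was 6.41 (95% order-statistic interval 5.58 to 7.24, range 3.04 to 24.9), which includes the 6.97 of all 15064 peaks. The median was 103 tags (interval 73 to 139, range 18 to 1078), beside 162. Of the members, 43 of 97 lay above the median fold of the table, where 49.9% of all peaks do. In the top 20.0% of the table (10.8-fold and more) there were 9 of 97 (9.28%, exact interval 4.33 to 16.9%). In the top 10.1% (14.9-fold and more) there were 3 of 97, namely ITGB3BP, ADAMTS13 and ADAMTS17.

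**Figure D1:**
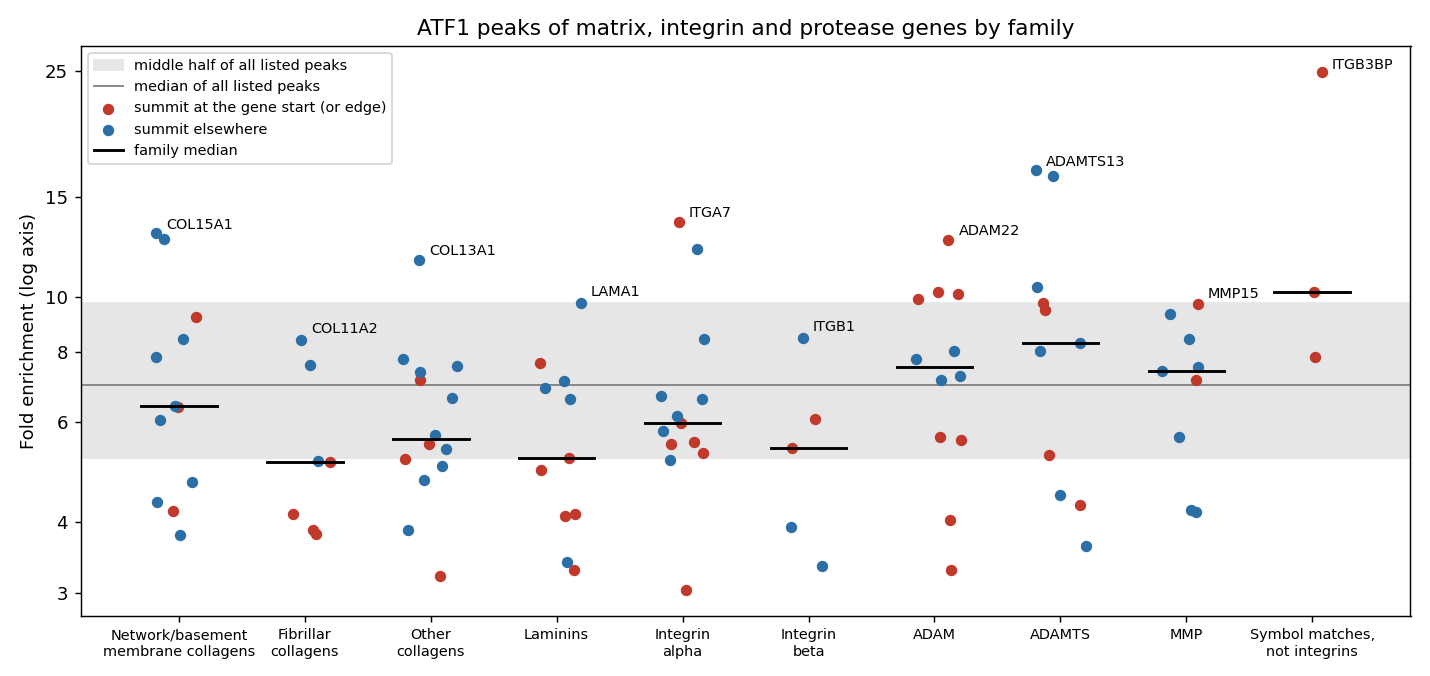
Fold enrichment of each of the 97 member peaks (log axis) by gene family, red where the summit lay within 1 kb of the gene start (or of either end where no start is listed) and blue elsewhere. Black bars are family medians, the grey line is the median of all listed peaks (6.97) and the grey band their quartiles. ITGB3BP stands at 24.9, and most collagen, laminin and integrin peaks lie under the grey line.

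The summit of a peak was called near the start when it lay within 1 kb of a start of the assigned gene. RefSeq starts with strand were at hand for 67 of the 97 genes. For the other 30 either listed end was used, so a summit at the far end also counts there, and 12 of those 30 passed. By this measure 42 of 97 member peaks were near the start (43.3%, interval 33.3 to 53.7%), where 63.0% of all listed peaks were. The whole table lists 1 peak for each gene name, and how that peak was chosen is not stated. A summit elsewhere therefore does not show that the start of that gene held no peak. Another 34 (35.1%) lay over 10 kb from the start or end used, beside 17.7% of all peaks. By the authors' classes 55 were exonic, 33 intronic, 8 upstream and 1 downstream. The exonic share of members was 56.7% (interval 46.3 to 66.7%), beside 43.5% of the table. The intronic share, 34.0%, was close to the 33.9% of the whole table, while upstream peaks were 8.25% of members and 19.9% of the table.

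**Figure D2:**
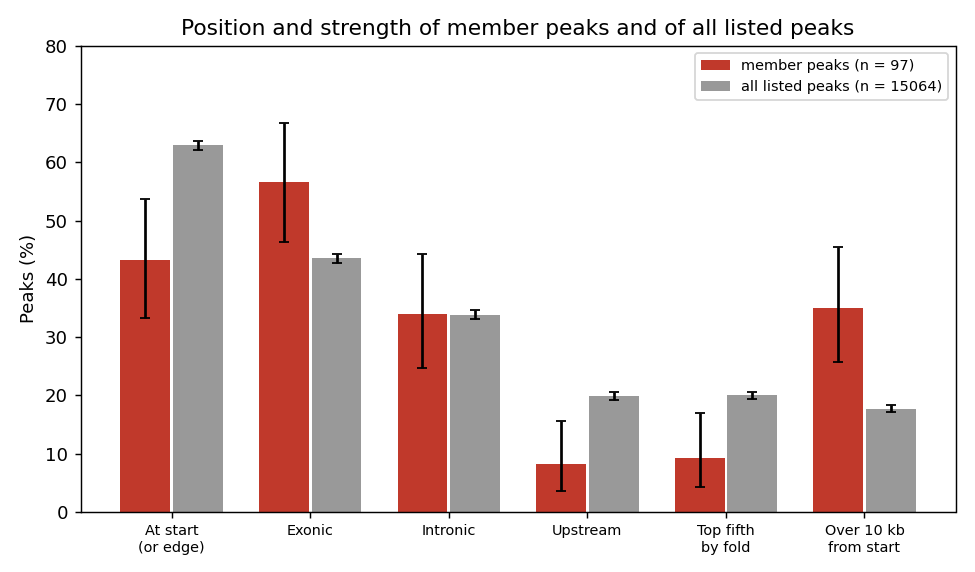
Share of peaks (%) in each position or strength class, for the 97 member peaks (red) and all 15064 listed peaks (grey), with exact 95% binomial intervals over peaks. The member shares were lower at the start (43.3% beside 63.0%) and upstream (8.25% beside 19.9%), and the intronic shares were alike.

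Matrix genes are long, so the shares were also taken within classes of gene length. The median length of the 147 protein-coding genes of these families was 72903 bp, beside 24170.5 bp over all protein-coding genes. In genes over 46 kb, 32 of 60 member peaks were near the start (53.3%, interval 40.0 to 66.3%), beside 57.7% of all such peaks. In shorter genes, 10 of 37 were (27.0%, interval 13.8 to 44.1%), beside 66.0%. The gap from the table was the wider in the shorter genes, and the difference between the length classes was not tested. Peaks near the start had lower median fold enrichment in members than in the table within both length classes. The medians were 5.45 beside 7.10 in long genes (32 member peaks) and 6.39 beside 7.71 in shorter ones (10 member peaks). No interval was taken for these medians.

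Near-start members had more tags but less fold enrichment at the median than distant ones. Over the 42 near-start members the median peak held 169.5 tags (interval 108 to 260) at 5.53-fold (5.17 to 7.12). Over the 55 others it held 69 tags (40 to 111) at 7.10-fold (6.06 to 7.76), so the intervals overlap. Near-start members also led in the authors' score (164.55 beside 97.03) and in tags per kb of peak (94.3 beside 49.6). In the whole table the near-start peaks led in tags and in fold, with 232 tags and 7.49-fold beside 59 tags and 6.40-fold. They led there in score and tags per kb as well. Only 15 of 42 near-start members lay above the median fold of the table, where 55.6% of all near-start peaks do. Among the 97 members, longer peaks held more tags (Spearman's rho 0.90), and fold enrichment ran against length (rho -0.53), compared with 0.82 and -0.23 across all peaks. These are descriptions across peaks of 1 library, and longer peaks collect more tags by their extent. Members with at most 50 tags numbered 33 (34.0%), beside 21.0% of the table, and 25 of those 33 lay away from the start, much like the 2429 of 3170 in the table.

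**Figure D3:**
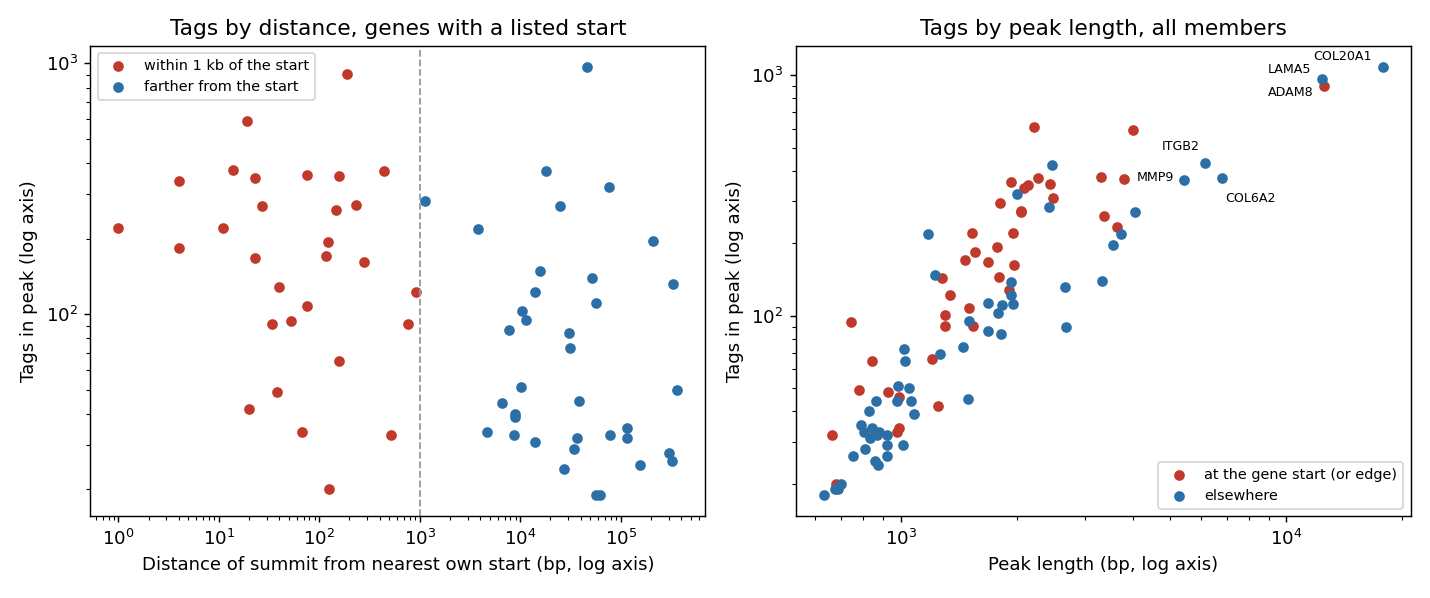
Left, tags in each peak against the distance of its summit from the nearest start, for the 67 members with a listed start (both axes log; dashed line at 1 kb). Right, tags against peak length for all 97 members, red near the start and blue elsewhere; the 6 peaks over 5 kb are named. Peaks with the most tags were the longest ones, at COL20A1, LAMA5 and ADAM8.

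Of the 147 protein-coding genes that match the symbol pattern, 97 were named in the table (66.0%, interval 57.7 to 73.6%), where 57.9% of all protein-coding genes are, a value just inside the interval. By gene length the order of these shares varied. Family genes up to 12539 bp were named at 6 of 16 (37.5%, beside 40.1% of all genes of that length). Those between that and 46264 bp were named at 30 of 40 (75%, beside 62.8%), and longer ones at 61 of 91 (67.0%, beside 70.9%). When any listed peak in the gene or the 2 kb around it was counted, whichever gene it was assigned to, the order turned: 99 of 147 (67.3%) beside 70.0% of all protein-coding genes. Laminins were named at 11 of 12 and collagens at 33 of 44, among them 14 of the 15 that are neither fibrillar nor of the network and basement membrane group, while MMP proteases were named at 9 of 22. At a start, a listed summit of any gene lay within 1 kb for 29 of the 97 family genes with a RefSeq start (29.9%, interval 21.0 to 40.0%), beside 50.4% of all protein-coding genes. The 97 genes of that count are not the 97 members: 30 of them have no listed peak of their own. Of the 50 family genes that were not named, only COL4A4 and ITGB7 had a listed peak within the gene or 2 kb of it, assigned to COL4A3 and ZNF740.

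**Figure D4:**
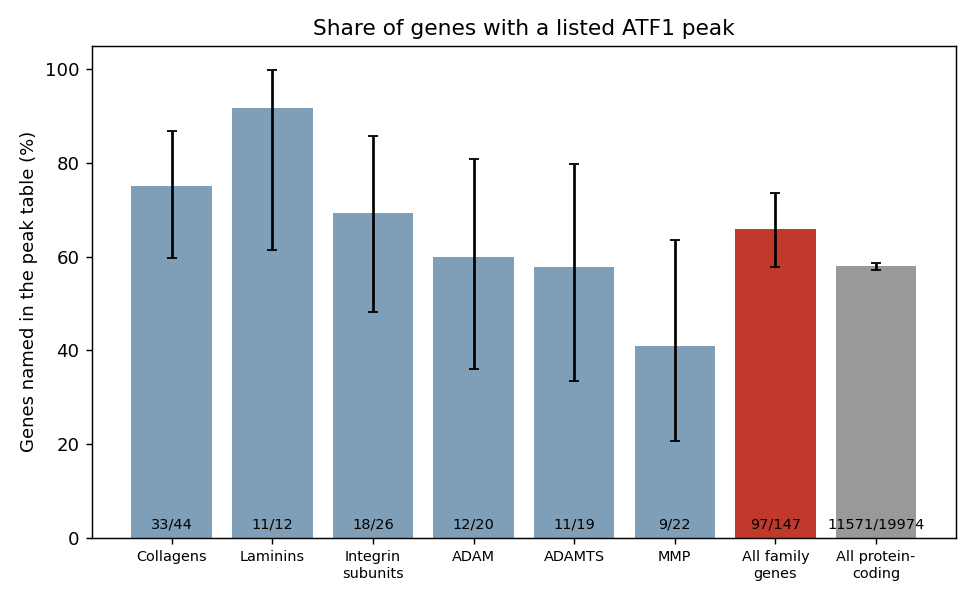
Share of protein-coding genes (%) that are named in the peak table, by family, with exact 95% binomial intervals over genes and the counts at the foot of each bar. Of the 6 family bars, laminins (11 of 12) are highest and MMP proteases (9 of 22) lowest, with wide intervals; all protein-coding genes are at 57.9%.

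Of 12 peaks at network and basement membrane collagens, 3 were near the start (25%, interval 5.49 to 57.2%), beside 63.0% of all peaks. These were COL4A3 and, counted by a gene end, COL6A1 and COL6A5. COL4A1 and COL4A2, which encode the common collagen IV chains and lie head to head on chromosome 13, both had small intronic peaks. The COL4A1 peak held 25 tags (exact Poisson interval 16.2 to 36.9) at 8.42-fold, 156458 bp inside the gene (chr13:110150201-110151056). That of COL4A2 held 34 tags at 6.06-fold, 4704 bp inside (chr13:110311417-110312258). Neither summit was near the start that faces the other gene, and a second listed peak in COL4A2 carries the name of its antisense gene COL4A2-AS2.

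COL4A3, which encodes a collagen IV chain of specialised basement membranes, had a peak of another kind, with 273 tags and 6.39-fold enrichment (chr2:227163424-227165472, intronic). Its summit lay 230 bp inside COL4A3 and 649 bp upstream of the start of COL4A4, its head-to-head partner. Of the other collagen IV genes, COL4A5 and COL4A6 were not in the table. COL15A1 and COL18A1, which encode the basement membrane collagens that release anti-angiogenic fragments, stood far apart, at 12.9-fold with 73 tags and at 3.80-fold with 103 tags. Both peaks were intronic and over 10 kb from a listed start.

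Collagen VI genes, whose products form beaded filaments beside basement membranes, also ranged widely. COL6A3 had 12.6-fold enrichment on 33 tags, 77856 bp inside the gene and exonic. COL6A5 had 9.20-fold on 46 tags, 308 bp from a gene end. COL6A1 and COL6A2, neighbours on chromosome 21, had broad peaks with 371 and 373 tags at 4.19-fold and 4.35-fold. The higher folds here thus sat on the smaller counts. COL17A1 and COL7A1 encode the collagens that anchor epithelia to the underlying matrix. COL17A1 had 139 tags and 7.81-fold in an exonic peak 51687 bp from its start. The COL7A1 peak, 6.41-fold with 84 tags, was 986 bp upstream of the start of UCN2, a neighbouring neuropeptide gene, and far from its own.

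Fibrillar collagens, which form the fibres of connective tissue, had the lowest median of the collagen groups, 5.10-fold over 7 peaks. COL11A2 led at 8.39-fold with 148 tags, in the single downstream peak among the members. COL2A1 of cartilage had 7.58-fold on 44 tags, and COL1A1, a chain of the main bone and skin collagen, 5.12-fold on 90 tags in an exonic peak 1694 bp from a gene end. COL24A1 was lowest, at 3.81-fold with 260 tags, its summit 146 bp upstream of the start. COL1A2, the other chain of type I collagen, and COL3A1 were not in the table.

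Of the remaining 14 collagens, 4 had their peak near the start. COL13A1, a transmembrane collagen of cell contacts, reached 11.6-fold on 39 tags, 8965 bp inside the gene. COL12A1, which decorates collagen fibres, had 7.76-fold on 35 tags and COL23A1 7.53-fold on 132 tags, both over 10 kb inside. COL25A1 was lowest at 3.22-fold, with 162 tags 276 bp inside its start. COL20A1 had the longest peak of all members, 17770 bp, with 1078 tags and 4.74-fold enrichment.

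Laminin genes had peaks at 11 of 12, with LAMA4 the exception, and 6 of these were near the start. None of the 11 was in the top 20.0% by fold. LAMA3 and LAMB3 encode chains of the laminin that epithelial cells lay down beneath themselves. LAMA3 had 269 tags and 4.94-fold enrichment, 27 bp inside the 5′ end of the gene (chr18:23688910-23690958). LAMB3 had 29 tags and 6.59-fold in an exonic peak 33934 bp from its nearest start. The LAMA3 peak counts as near the start only by the 5′ end of the gene in the deposited table. No listed summit lay within 1 kb of a LAMA3 start among the RefSeq promoters. The LAMB3 peak was small and distant from its listed starts.

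LAMA5, LAMB1 and LAMC1 encode the more widely expressed laminin chains. LAMB1 had 376 tags at 5.19-fold, 14 bp upstream of its start, and LAMC1 372 tags at 4.13-fold, 443 bp inside. The LAMA5 peak was 12411 bp long, with 964 tags at 3.41-fold, and its summit lay 46568 bp inside the gene. LAMA1, an embryonic alpha chain, had the highest laminin fold, 9.76, on 26 tags in an intron. LAMB4 had 7.10-fold on 24 tags and LAMC3 the lowest fold, 3.29 on 101 tags.

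Of 18 integrin alpha genes, 13 had a peak, and 6 of these were near the start. ITGA6, whose product binds laminin, had 359 tags and 5.55-fold enrichment, 76 bp upstream of the nearer RefSeq start (chr2:172426838-172428768). The core in its printed promoter lies between that summit and the start. ITGAV, the alpha chain of the receptors that activate TGF-beta, had 221 tags and 5.29-fold with the summit 1 bp inside the gene. ITGA2, a collagen receptor chain, had 193 tags and 5.50-fold, 121 bp upstream. ITGA1, another collagen receptor chain, had 91 tags and 5.99-fold, 34 bp inside, in a peak also 420 bp inside PELO.

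The highest folds of the alpha chains rested on small counts. ITGA7, a laminin receptor chain of muscle, had 13.6-fold on 48 tags, 553 bp from a gene end. ITGA5, the fibronectin receptor chain, had 12.1-fold on 31 tags (exact Poisson interval 21.1 to 44.0), exonic and 13970 bp from its start (chr12:54404813-54405643). ITGA9 had 8.42-fold on 29 tags in an intron. ITGA3, an epithelial laminin receptor chain, showed the reverse, with 309 tags at 3.04-fold, the lowest fold of all members, 117 bp from a gene end. Of the chains found on leukocytes, ITGAE, ITGAL and ITGAX had intronic peaks at 6.61-fold, 6.17-fold and 5.80-fold, and ITGAM, ITGAD and ITGA4 were not listed.

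Of 8 integrin beta genes, 5 had a peak, and 1 of these lay above the median fold of the table. ITGB1 encodes the partner of most alpha chains. Its peak was small and intronic, with 40 tags and 8.46-fold enrichment, 8798 bp upstream of the nearest of its starts and within the gene (chr10:32943841-32944670). ITGB5, a partner of the alpha V chain, had 354 tags and 5.40-fold, 157 bp upstream of its nearest listed start and also within the gene. ITGB3, another such partner, had 295 tags and 6.09-fold, 101 bp from a gene end. ITGB4, the hemidesmosome chain that pairs with alpha 6, had 112 tags and 3.93-fold. ITGB2, the leukocyte chain, was lowest at 3.35-fold, with 431 tags over 6160 bp. ITGB6, ITGB7 and ITGB8 were not named.

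The 3 listed genes that match the integrin pattern without encoding a chain all had near-start peaks. ITGB1BP2 also matches the pattern without encoding a chain, but was not named. ITGB3BP had 94 tags within 743 bp, 24.9-fold enrichment and a score above that of 83.0% of peaks. Its summit lay 52 bp upstream of the start (chr1:63522911-63523653) and 248 bp upstream of EFCAB7, which points the other way. ITGB1BP1 had 168 tags and 7.81-fold, 23 bp inside its start and 149 bp upstream of CPSF3, an mRNA 3′ end cleavage enzyme. ITGBL1 had 34 tags and 10.2-fold, 68 bp inside its start. No integrin chain reached the fold of ITGB3BP.

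Of 12 ADAM peaks, 8 were near the start (66.7%, interval 34.9 to 90.1%), a share close to the 63.0% of all listed peaks. ADAM9 and ADAM33 counted there by a gene end. Above the median fold of the table lay also 8, with the same interval, which includes the 49.9% of all peaks. These were not the same 8 peaks, since those of ADAM11, ADAM12, ADAM15 and ADAM20 were above the median but away from the start. ADAM22, a neuronal member without protease activity, was first at 12.6-fold with 350 tags, 23 bp inside the gene (chr7:87933659-87935800). ADAM10, the sheddase that cuts NOTCH and E-cadherin, had 338 tags and 10.2-fold, 4 bp inside the listed 5′ end (chr15:58748570-58750658). ADAM9, a further sheddase, had 609 tags at 10.1-fold, 76 bp from a gene end. ADAM17, the TNF and EGFR ligand sheddase, had 171 tags and 9.91-fold, 116 bp upstream of its start (chr2:9555280-9556752). Its core, printed above, begins 126 bases before the start, close to the summit. Peaks of these 4 genes were thus within 116 bp of a gene edge and at 9.91-fold or more. The other near-start ADAM peaks were weaker, all below the 6.97-fold median of the table. They were those of ADAM30 (5.65-fold), ADAM33 (5.58-fold), ADAM19 (4.03-fold) and ADAM8 (3.30-fold).

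The rest of the ADAM family was mixed. ADAM11, ADAM20 and ADAM15 had 8.02-fold, 7.77-fold and 7.24-fold on 33 to 44 tags. Each summit lay over 5 kb from the start or end used. ADAM12 had 26 tags and 7.14-fold, 323710 bp inside its gene. ADAM8 was lowest at 3.30-fold, with 904 tags over 12552 bp.

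The 2 strongest ADAMTS peaks lay at other genes' starts. ADAMTS13, which cleaves von Willebrand factor, was given a peak of 16.7-fold with 218 tags (chr9:133417374-133418554, exonic). Its summit was 3799 bp from the nearest ADAMTS13 start and 34 bp inside REXO4, an exonuclease gene. ADAMTS17 had 16.3-fold on 50 tags, exonic and 365823 bp from its start, but 71 bp upstream of the uncharacterised LOC105371022. ADAMTS10 had 10.4-fold on 95 tags, 11344 bp inside its gene. ADAMTS14, which trims procollagen, had 184 tags and 5.25-fold, 4 bp inside its start. ADAMTS19 was lowest at 3.63-fold with 283 tags, 1140 bp inside its start and so just outside the window, where COL19A1, at 913 bp, was just within it. Of all members, 3 had the summit within 1 kb of another protein-coding start and not of their own (3.09%), beside 1.47% of the table. These were ADAMTS13, COL7A1 and MMP25, the last 27 bp upstream of LOC124900372. Only starts of the 15813 protein-coding genes with a promoter sequence, of 19974, were searched, so starts of other genes could be missed.

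MMP genes had the smallest share named, 9 of 22 (40.9%, interval 20.7 to 63.6%). That interval includes the 57.9% of all protein-coding genes. MMP15, a membrane-type metalloproteinase, had the strongest peak, 9.69-fold with 589 tags over 4004 bp, and its summit was 19 bp inside the 5′ end of the gene (chr16:58024222-58028225). MMP24, another membrane type, had 9.33-fold on 32 tags, 37039 bp inside. MMP2, a gelatinase, had 8.42-fold on 18 tags (exact Poisson interval 10.7 to 28.4), the fewest of any member. MMP9, the other gelatinase, was lowest at 4.17-fold with 368 tags over 5419 bp. MMP7, matrilysin of epithelial tumours, had 20 tags and 7.12-fold, 126 bp inside its start. On chromosome 11, which holds MMP7, its neighbours MMP1, MMP3, MMP8, MMP10, MMP12, MMP13, MMP20 and MMP27 were not listed, and neither was the membrane-type MMP14.

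The CRE core was found in a smaller share of members' promoters than of all listed genes', but within counting error. In the 300 bases of RefSeq promoter, from 250 before the start to 50 from it, TGACG occurred on either strand in 19 of 67 members with a promoter sequence (28.4%, interval 18.0 to 40.7%). That interval includes the share of 39.4% of all listed protein-coding genes and that of 34.5% of all protein-coding genes with a promoter sequence. The full element TGACGTCA, which holds the core on both strands, was in 0 of 67 members, which allows a share of up to 5.36% (exact interval). It was in 3.72% of all listed protein-coding genes and in 3.00% of all protein-coding genes with a promoter sequence. Where the summit itself lay in that window, 7 of 15 members held the core (46.7%, interval 21.3 to 73.4%), beside 49.1% of all such genes. These 7 were ADAM17, ADAMTS14, COL11A1, ITGA6, ITGB1BP1, ITGB3BP and MMP15. The AP-1 element TGAGTCA, searched on both strands and sharing no core with the CRE, was in 4 members, or 5.97% beside 5.27% of protein-coding genes. These were ITGA5, LAMA3, LAMB3 and MMP7. It was in 0 of the 15 members with the summit in the window (interval up to 21.8%), beside 4.51% of all such genes. A match is only a run of letters, and no binding was measured at it.

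Named genes had the more GC-rich promoters. Median GC content was 66.3% in the 67 named genes and 51.8% in the 30 unnamed ones, beside 62.3% over all protein-coding genes. The ratio of observed to expected CpG was 0.72 in the named and 0.41 in the unnamed genes, beside 0.74 over all protein-coding genes. GC and CpG content were not split in this way over all genes. Their part in which genes are listed was not tested.

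Other genes of the matrix and of adhesion had a lower median fold than the table and a smaller share of strong peaks. Of 69 such genes in a separate list, 55 were named (79.7%, beside 57.9% of protein-coding genes). Their median was 5.58-fold and 130 tags, beside 6.97-fold and 162 tags. The peak was near the start in 22 of 55 (40.0%, beside 63.0%). In the top 20.0% by fold were 5 of 55 (9.09%, interval 3.02 to 19.95%). TLN2, a talin that activates integrins, led at 20.7-fold with 641 tags, 39 bp upstream of its start. FN1, fibronectin and the main ligand of alpha 5 beta 1, followed at 15.8-fold with 347 tags, 78 bp upstream. DAG1, the dystroglycan receptor of laminins, had 11.3-fold and 481 tags, 4 bp upstream. Of the kinases and adaptors at integrin tails, ILK had 7.14-fold with 193 tags and VCL 6.29-fold with 352 tags at their starts. PTK2, the focal adhesion kinase, had 7.78-fold on 25 tags far inside the gene. FERMT3, the kindlin of blood cells, was lowest at 3.02-fold with 229 tags.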

How the data were processed

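The submitters' processing notes name CASAVA, Bowtie2, bedtools and hg38; neither caller, control, treatment of multiply mapping reads nor annotation is stated there. Deposited tags are raw counts of reads in each peak. The deposited fold enrichment is a ratio whose lowest value is 3, and the deposited score, of unstated basis, starts at 50. Library depth is unknown. Of the lines, 1 lacked a position and was dropped.

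Members and lists were chosen with earlier results of these data known. Starts came from RefSeq promoters (GRCh38.p14) and, on that strand, the 5′ end of the gene in the deposited table; protein-coding genes numbered 19974. Shares carry exact (Clopper-Pearson) 95% intervals and tags exact Poisson ones, for counting error only. Genes named were the 3 highest and the lowest by fold in each family, those in the top 10.1%, shared starts, and preset chains and proteases; others were named after their values were seen. The values of 1 member that the rule names are not reported here. The steps were tested on simulated data. Alternatives changed the peak threshold, window, ranking, motif and gene set. Software was scipy 1.17.1 and pandas 2.3.3 in Python 3.11.15.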

Additional observations from a re-analysis of the deposited data

How the results depend on the processing

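Of 21 alternatives, 13 stayed within the interval of the main value and 8 moved; 4 were chosen after seeing the data. With peaks of at least 5-fold the medians of members were 7.45-fold and 67.5 tags (7.91-fold and 146 tags in the table). Among near-start peaks the median was 5.53-fold. Tags per kb of peak gave 60.7, beside 88.2. Of the family genes, 29.3% were named by peaks above the median fold, beside 29.0% of protein-coding genes, a smaller gap than with all peaks. With a 5 kb window 55.7% of member peaks were near the start, beside 76.1%. The full CRE was in 0% of members' promoters, and the core in 46.7% of those with the summit inside. In each of the 6 other settings, the near-start share of members was below that of the table. The causes were not tested. Only 1 library and no read totals were used, so small peaks such as that of MMP2 (18 tags) have wide counting error.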
